A study of Danio rerio with 9 samples.

Results

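The genes described here are 73 of the 32520 genes in the deposited count table. They were chosen because their levels in wild-type zebrafish embryos were far below those in 2 libraries of kdm4ab knockout embryos. Each had at least 1 CPM (counts scaled to a library total of 1000000) in kdm4ab knockout replicates 1 and 3. Each of the 3 wild-type libraries was at or under 1/16 of the mean of those 2 libraries, and each of the 3 kdm4aa knockout libraries was under 1/4 of it. The genes were thus chosen by their measured levels in these 8 libraries, so their levels in the kdm4ab knockout against the other groups are a description and carry no test. Replicate 2 of the kdm4ab knockout took no part in the choice.

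Zebrafish embryos of 3 genotypes were sequenced as poly-A RNA, with 3 libraries each of wild type, a kdm4aa knockout and a kdm4ab knockout. No source used here gives the embryos' stage, the alleles, how many embryos made a library, or whether replicates came from separate clutches. The p-values therefore cover the spread among these libraries, which may be technical. The submitters sought targets of kdm4aa, whose knockout they describe as delayed in development, and sequenced the kdm4ab knockout beside it. The KDM4 enzymes that both genes encode take methyl groups off lysines H3K9 and H3K36 of histone H3. Methylated H3K9 marks silent chromatin, and methylated H3K36 lies over the bodies of transcribed genes. Loss of such an enzyme can change many genes directly or indirectly, and counts of RNA do not tell these apart.

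Library totals ran from 27894551 to 46156237 counts. Replicate 2 of the kdm4ab knockout stood apart: 14247 genes were detected in it, and 22025 to 23019 in each of the rest. On log2(CPM + 1) across genes its correlation with replicates 1 and 3 was 0.929 and 0.922, where every other pair within a group had 0.997. Tests were therefore fitted on the other 8 libraries, and results of the fit of all 9 are given beside them. Transcripts of kdm4ab (ENSDARG00000019103) stood at 123.1, 168.6 and 120.5 CPM in wild type, at 160.9, 143.5 and 143.9 CPM in the kdm4aa knockout, and at 2.56, 0 and 2.33 CPM in kdm4ab knockout replicates 1, 2 and 3. Replicates 1 and 3 of the kdm4ab knockout thus carry the loss that their label states. Replicate 2 also had no count of kdm4aa, and fewer genes were detected in it. Its level of kdm4ab therefore does not by itself check its label. Transcripts of kdm4aa (ENSDARG00000018782) were at 15.7 ± 1.25 CPM (SD, n = 3) in its own knockout and 18.9 ± 1.62 CPM (SD, n = 3) in wild type (adjusted p 0.204), so that level does not check the kdm4aa labels. As a check of the labelled tissue, markers of several embryonic tissues were present: neural markers summed to 561 to 838 CPM and epidermal markers to 821 to 2527 CPM over the 9 libraries, while somite and skeletal muscle markers summed to 3.02 to 5.94 CPM.

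The levels of the 73 genes in replicates 1 and 3 of the kdm4ab knockout ran from 1.22 to 524 CPM, with a median of 7.05 CPM. Their median wild-type level was 0.171 CPM, that in the kdm4aa knockout was 0.407 CPM, and 48 of them stayed under 1 CPM in all 6 libraries of these groups. The ratio of the pooled rate of replicates 1 and 3 to that of wild type ran from 16.9 to 866, with a median of 36.4, where genes with no wild-type count enter at a lower bound. Between these 2 libraries 66 of 73 genes differed by less than 1.5 times. The rule used both libraries, and the share over all genes was not counted, so this is no trait of the members. Whether more cells made these transcripts or each cell made more of them cannot be told apart in whole embryos. In edgeR's quasi-likelihood test all 73 were called higher than wild type, where 25.3% of all tested genes were called higher. With all 9 libraries, 57 were called higher of the 65 that passed the filter on low counts, where 8.97% of all tested genes were. That count follows from the rule and is read no further.

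**Figure D1:**
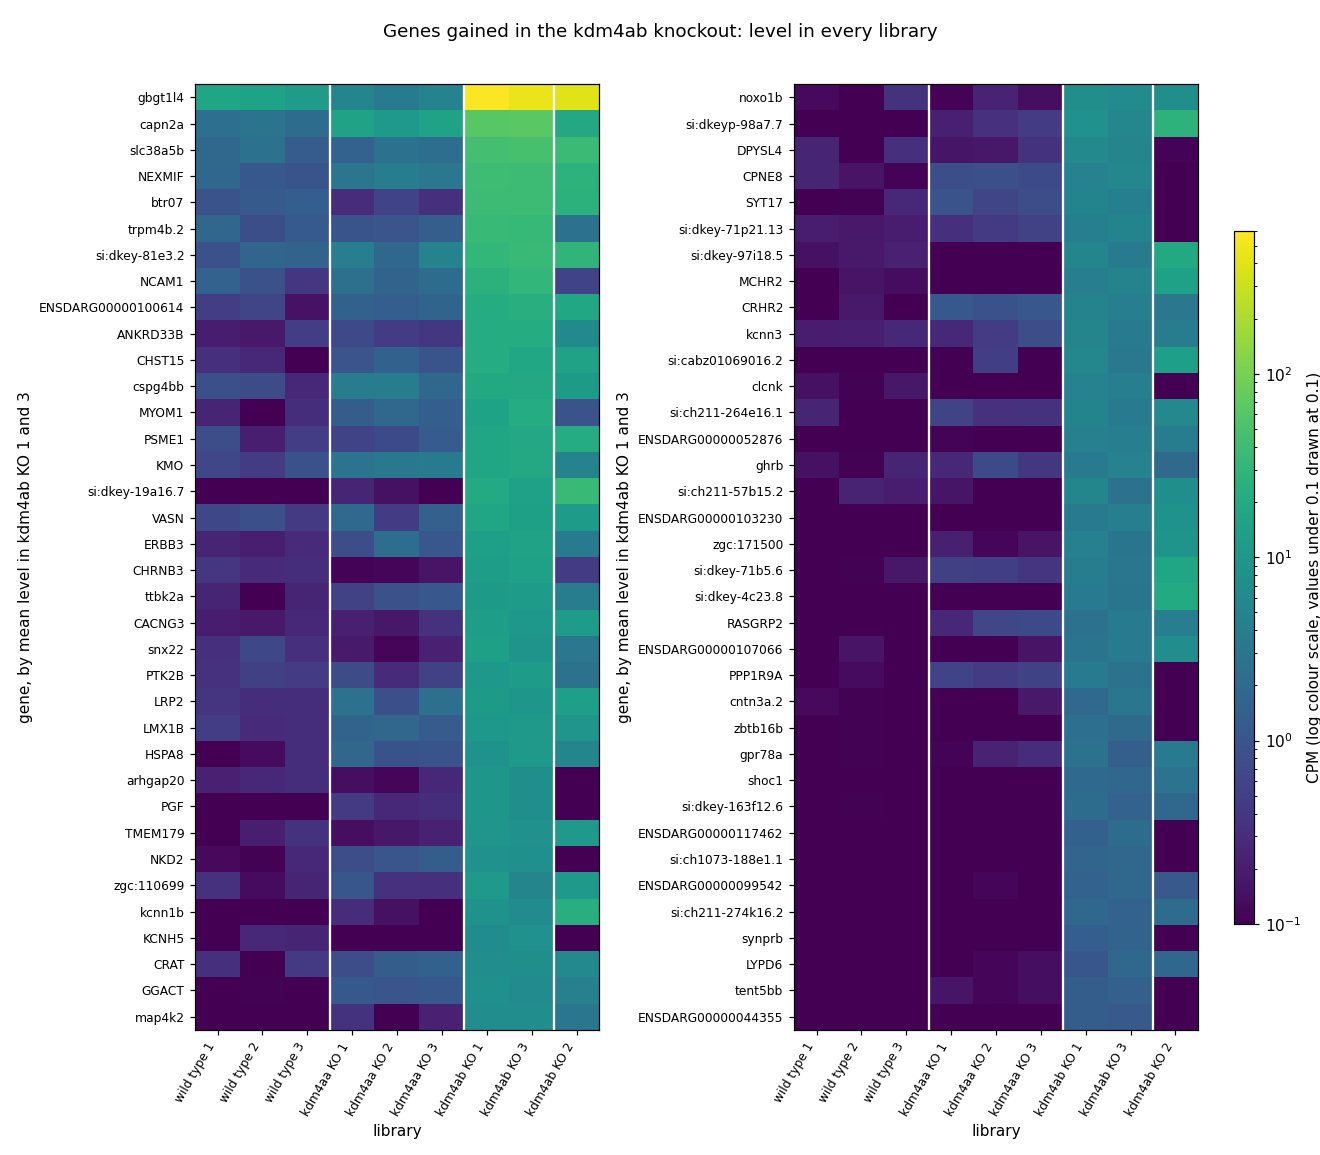
CPM of 72 of the 73 genes (rows, split over 2 panels, ordered by mean level in kdm4ab knockout replicates 1 and 3) in each of the 9 libraries (columns), on a log colour scale. The libraries of kdm4ab knockout replicates 1 and 3 are bright by the rule, while replicate 2 has 15 genes with no count.

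Of the 73 genes, 51 had an informative symbol, 15 a clone or project name and 7 no symbol in the table of names used. The named genes cover unlike functions. None of the 20 lists of embryonic cell types and pathways held a member. The 186 list genes that passed the filter on low counts are a small part of all tested genes, so nothing is read from this absence. The names are those of the table, which writes 30 of them in capitals, and 19 members carry a symbol that another identifier also has, so which paralog is meant is uncertain, and such genes are given with their identifier.

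The gene with the highest count rate was gbgt1l4 (ENSDARG00000068503), named for its likeness to a glycosyltransferase that adds N-acetylgalactosamine to globoside glycolipids. It stood at 16.8, 15.4 and 12.3 CPM in wild type, at 5.38, 3.67 and 4.88 CPM in the kdm4aa knockout, at 575.5 and 472.9 CPM in kdm4ab knockout replicates 1 and 3, and at 391.4 CPM in replicate 2. It was the only member above 100 CPM in any library, and its kdm4aa knockout libraries all lay below wild type. In the test of these groups it fell by 1.60 on the log2 scale in the kdm4aa knockout (SE 0.145, adjusted p 1.05e-07). The rule used the levels of both groups, so this p-value only describes a chosen gene.

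Other members act at the cell surface and in the matrix. The gene cspg4bb encodes a chondroitin sulfate proteoglycan of the cell membrane. It was at 0.838, 0.727 and 0.265 CPM in wild type, at 3.86, 3.87 and 1.92 CPM in the kdm4aa knockout, at 19.4 and 19.1 CPM in kdm4ab knockout replicates 1 and 3, and 11.5 CPM in replicate 2. CHST15 (ENSDARG00000074527), a sulfotransferase that acts on chondroitin sulfate, went from 0.321, 0.260 and 0.044 CPM in wild type to 21.8 and 18.2 CPM in those replicates, with 14.9 CPM in replicate 2 and 0.95 to 1.49 CPM in the kdm4aa knockout. For both genes the 3 groups did not overlap, with the kdm4aa knockout between wild type and the kdm4ab knockout. The neural cell adhesion gene NCAM1 (ENSDARG00000007220) was at 1.55, 0.857 and 0.397 CPM in wild type, at 2.47, 1.57 and 2.15 CPM in the kdm4aa knockout, and at 26.4 and 31.9 CPM in replicates 1 and 3. In replicate 2 it was at 0.574 CPM, within the wild-type range, so the kdm4ab knockout libraries did not agree on this gene. The contactin gene cntn3a.2, of another family of neural adhesion molecules, was at 1.95 and 3.0 CPM against at most 0.181 CPM in every wild-type and kdm4aa knockout library, and had no count in replicate 2.

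Ion channels and transporters made up 8 members. The amino acid transporter gene slc38a5b stood at 1.80, 2.60 and 1.24 CPM in wild type, at 1.55, 2.59 and 2.31 CPM in the kdm4aa knockout, at 44.8 and 47.4 CPM in kdm4ab knockout replicates 1 and 3, and 37.0 CPM in replicate 2. Wild type and the kdm4aa knockout overlapped, and all 3 kdm4ab knockout libraries lay far above both. The cation channel gene trpm4b.2 was at 1.78, 0.805 and 1.19 CPM in wild type, at 0.95, 0.991 and 1.38 CPM in the kdm4aa knockout, and at 35.2 and 34.3 CPM in replicates 1 and 3. Replicate 2, at 2.58 CPM, was above every wild-type and kdm4aa knockout library but at 7.43% of the mean of the other kdm4ab knockout libraries. CHRNB3 (ENSDARG00000038508), a subunit of the nicotinic acetylcholine receptor, was at 12.9 and 14.3 CPM against 0.395, 0.286 and 0.309 CPM in wild type and 0.109, 0.117 and 0.158 CPM in the kdm4aa knockout, with 0.466 CPM in replicate 2. The calcium channel subunit gene CACNG3 (ENSDARG00000076401) was at 12.6, 12.2 and 10.3 CPM in kdm4ab knockout replicates 1, 2 and 3, and at 0.175 to 0.362 CPM in the other 6 libraries. Among the potassium channel genes, kcnn1b and kcnn3, of calcium-activated channels, had 23.1 and 3.94 CPM in replicate 2. In replicates 1 and 3 they had 8.67 and 6.74 CPM, and 5.22 and 3.69 CPM. The voltage-gated KCNH5 (ENSDARG00000043220) had 6.93 and 8.07 CPM in replicates 1 and 3 and none in replicate 2. The chloride channel gene clcnk, known from kidney tubules in mammals, was at 4.68 and 4.10 CPM, again with no count in replicate 2.

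Ligands, receptors and secreted modulators made up 10 members, with levels of 1.45 to 15.3 CPM. VASN (ENSDARG00000099266), which binds the growth factor TGF-beta in mammals, was at 0.666, 0.831 and 0.442 CPM in wild type and at 1.95, 0.466 and 1.45 CPM in the kdm4aa knockout. It was at 16.6 and 14.0 CPM in kdm4ab knockout replicates 1 and 3, and 11.8 CPM in replicate 2. LRP2 (megalin, ENSDARG00000102506), an endocytic receptor, was at 11.3, 13.7 and 10.1 CPM in replicates 1, 2 and 3, at 0.309 to 0.370 CPM in wild type, and at 2.55, 0.845 and 2.44 CPM in the kdm4aa knockout. ERBB3 (ENSDARG00000006202), a receptor for neuregulins, reached 13.7 and 15.2 CPM, with 3.44 CPM in replicate 2, 0.208 to 0.287 CPM in wild type and 0.787 to 2.33 CPM in the kdm4aa knockout. For each of these 3 receptors and modulators replicate 2 lay above every wild-type and kdm4aa knockout library. The gene erbb3b was more abundant in wild type than ERBB3, at a mean of 8.7 CPM. CRHR2 (ENSDARG00000062377), a receptor of the corticotropin-releasing hormone family, was at 4.83, 3.15 and 4.10 CPM in replicates 1, 2 and 3, at 0.049, 0.182 and 0.044 CPM in wild type, and at 1.11, 0.903 and 1.06 CPM in the kdm4aa knockout. The growth hormone receptor gene ghrb had 3.53, 2.01 and 4.79 CPM in kdm4ab knockout replicates 1, 2 and 3. The melanin-concentrating hormone receptor gene MCHR2 (ENSDARG00000007842) had 4.09, 14.4 and 4.92 CPM, against at most 0.156 CPM in the other groups. PGF (ENSDARG00000076767), of the family of vascular endothelial growth factors, had 2 counts in all of wild type. Its rate in replicates 1 and 3 was 555 times that of wild type (exact 95% interval 153 to 4590), but replicate 2 had no count. NKD2 (ENSDARG00000055271), an antagonist of Wnt signalling, likewise had 8.08 and 7.91 CPM in replicates 1 and 3 and no count in replicate 2.

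Kinases, regulators of small GTPases and genes of membrane traffic made up 11 members. The kinase genes were PTK2B (ENSDARG00000039577), a cytoplasmic tyrosine kinase related to focal adhesion kinase, ttbk2a, a tau tubulin kinase known from cilium assembly, and map4k2. In kdm4ab knockout replicates 1, 2 and 3, PTK2B had 10.4, 2.62 and 11.8 CPM, ttbk2a had 11.6, 3.80 and 12.2 CPM, and map4k2 had 7.00, 3.05 and 7.10 CPM. All 3 genes were thus lower in replicate 2 than in the other kdm4ab knockout libraries and above all 6 libraries of the other groups. In wild type the mean of ttbk2a was 0.18 CPM, while that of its sister ttbk2b was 46.5 CPM. RASGRP2 (ENSDARG00000099092), which activates the small GTPase Rap, had no count in wild type. In the kdm4ab knockout it had 2.64, 4.19 and 3.71 CPM, and its rate in replicates 1 and 3 was at least 43.3-fold higher than wild type, against a floor of 3 counts per library. The gene arhgap20, the copine gene CPNE8 (ENSDARG00000102191), the synaptotagmin gene SYT17 and the synaptic vesicle gene synprb had no count in replicate 2, and their means in replicates 1 and 3 were 8.85, 5.19, 4.65 and 1.48 CPM.

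Metabolic enzymes were fewer. KMO, the kynurenine monooxygenase of tryptophan breakdown, was at 0.641, 0.467 and 0.883 CPM in wild type, at 2.72, 3.29 and 3.69 CPM in the kdm4aa knockout, at 16.7 and 19.1 CPM in kdm4ab knockout replicates 1 and 3, and 4.84 CPM in replicate 2. Its wild-type and kdm4aa knockout libraries did not overlap. CRAT (ENSDARG00000016545), a carnitine acetyltransferase, had 7.17, 6.02 and 7.66 CPM in the kdm4ab knockout replicates and a mean of 0.271 CPM in wild type. Another identifier of that name (ENSDARG00000040248) and cratb were more abundant in wild type, at means of 37.2 and 53.4 CPM. The gene noxo1b, an organizer of an NADPH oxidase, had 7.41, 7.49 and 6.69 CPM. GGACT (ENSDARG00000070581), which breaks down crosslinked peptides left by transglutaminase, had 7.97, 4.37 and 6.76 CPM, against 0, 0.104 and 0 CPM in wild type and 1.11, 0.991 and 1.11 CPM in the kdm4aa knockout.

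Of the 4 genes of protein turnover and folding, capn2a, a calcium-activated protease, had the highest count rate. It was at 2.37, 2.88 and 2.16 CPM in wild type, at 15, 10.9 and 15 CPM in the kdm4aa knockout, at 62.9 and 65.0 CPM in kdm4ab knockout replicates 1 and 3, and 19.3 CPM in replicate 2. The tripartite motif gene btr07, of a large fish family of ubiquitin ligases, was at 0.937, 1.17 and 1.35 CPM in wild type, at 0.299, 0.583 and 0.339 CPM in the kdm4aa knockout, and at 38.9, 26.6 and 39.2 CPM in kdm4ab knockout replicates 1, 2 and 3. PSME1 (ENSDARG00000002165), a proteasome activator subunit that interferon induces in mammals, was at 0.789, 0.208 and 0.486 CPM in wild type, at 0.597, 0.699 and 1.27 CPM in the kdm4aa knockout, and at 16.9, 22.2 and 19.3 CPM in kdm4ab knockout replicates 1, 2 and 3. For PSME1 and btr07 all 3 kdm4ab knockout libraries lay far above every other library. HSPA8 (ENSDARG00000037403), which carries the name of a constitutive chaperone, had 8.47, 5.23 and 10.6 CPM in those replicates. It was at 0.099 to 0.309 CPM in wild type and 0.903 to 1.79 CPM in the kdm4aa knockout. Another identifier of that name (ENSDARG00000068992) was far more abundant. It stood at 2384.0, 2398.7 and 2380.4 CPM in wild type and 2153.0, 2921.9 and 1992.2 CPM in kdm4ab knockout replicates 1, 2 and 3.

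Transcription and chromosome factors were NEXMIF (ENSDARG00000029296), a nuclear gene linked to intellectual disability in humans, LMX1B (ENSDARG00000068365), a homeobox factor of the limb and midbrain, zbtb16b and shoc1, a factor of meiotic crossing over. NEXMIF was at 1.90, 1.09 and 0.971 CPM in wild type, at 3.01, 3.96 and 3.14 CPM in the kdm4aa knockout, and at 40.8, 27.7 and 38.5 CPM in kdm4ab knockout replicates 1, 2 and 3. LMX1B was at 10.4, 9.43 and 10.6 CPM in those replicates, 0.286 to 0.493 CPM in wild type and 1.27 to 1.78 CPM in the kdm4aa knockout. The 3 genotypes did not overlap for LMX1B. Another identifier of that name (ENSDARG00000104815) was more abundant in wild type, at a mean of 3.59 CPM. The gene shoc1 had 1.93, 2.72 and 1.77 CPM in the kdm4ab knockout, 2 counts in all of wild type and none in the kdm4aa knockout.

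The members named only by a clone, project or identifier numbered 22, and 1 of them had the largest ratio of all members. The clone gene si:dkeyp-98a7.7 had 1 count in wild type and 8.15, 28.0 and 5.56 CPM in kdm4ab knockout replicates 1, 2 and 3, a ratio of 866 for replicates 1 and 3 (exact 95% interval 155 to 34200). The gene si:dkey-19a16.7 had 20.5, 36.5 and 14.5 CPM there and at most 0.244 CPM in any other library, a ratio of 441 (189 to 1360). In 5 members neither wild type nor the kdm4aa knockout had a count. Among them si:dkey-4c23.8 had 3.75, 20.3 and 2.97 CPM in the kdm4ab knockout replicates and was at least 46.9-fold higher than wild type in replicates 1 and 3.

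Replicate 2 of the kdm4ab knockout, which the rule left aside, was not used to choose these genes, though the wild-type and kdm4aa knockout values it is read against were. Of the 73 members, 58 had a count in it and 54 lay above every wild-type and kdm4aa knockout library. Of all genes with at least 1 CPM in replicates 1 and 3, 38% did so, but members have low levels in those groups by the rule, which makes this easier for them. With replicate 2 in place of the mean of replicates 1 and 3, 34 of the 73 met the minimum and both caps of the rule. The caps too are easier for members, and the share over all genes was not counted, so nothing is read from the 34. The median level of members in replicate 2 was 69.8% of their mean in replicates 1 and 3. For members at 1 to 5, 5 to 20 and above 20 CPM it was 96.9%, 57.1% and 69.8%. For other genes at these levels it was 65.3%, 83.8% and 80.6%.

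The 15 members with no count in replicate 2 were read against other genes of like level in replicates 1 and 3. At 1 to 5 CPM, 10 of 32 members (31.2%) and 37.7% of 2966 other genes had no count in it. At 5 to 20 CPM these were 5 of 30 members (16.7%) and 10.8% of 3565 other genes, and above 20 CPM none of 11 members and 0.97% of 7631 other genes. The share was lower for members than for other genes at 1 to 5 CPM and higher at 5 to 20 CPM. Many other genes of their level also lacked counts in this library, and why the 15 members did was not tested. The 4 members with counts that did not exceed the other groups were NCAM1, MYOM1 (ENSDARG00000104836), DPYSL4 and PPP1R9A. MYOM1, which carries the name of a myosin-binding protein of the muscle M-band, had 15.4 and 21.6 CPM in replicates 1 and 3 and 0.932 CPM in replicate 2.

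Other members were higher in replicate 2 than in the rest of their group. In it 11 members stood at more than 2 times their mean in replicates 1 and 3, and 9 of these 11 were among the 22 without an informative symbol. The exceptions were kcnn1b and MCHR2, at 300% and 320%. The gene si:dkey-4c23.8 had the highest share, at 605%. Depth and the lower number of genes detected in replicate 2 move with these values, and their part was not tested. The share of all genes above 2 times was not counted, so nothing about the members is read from the 11.

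**Figure D2:**
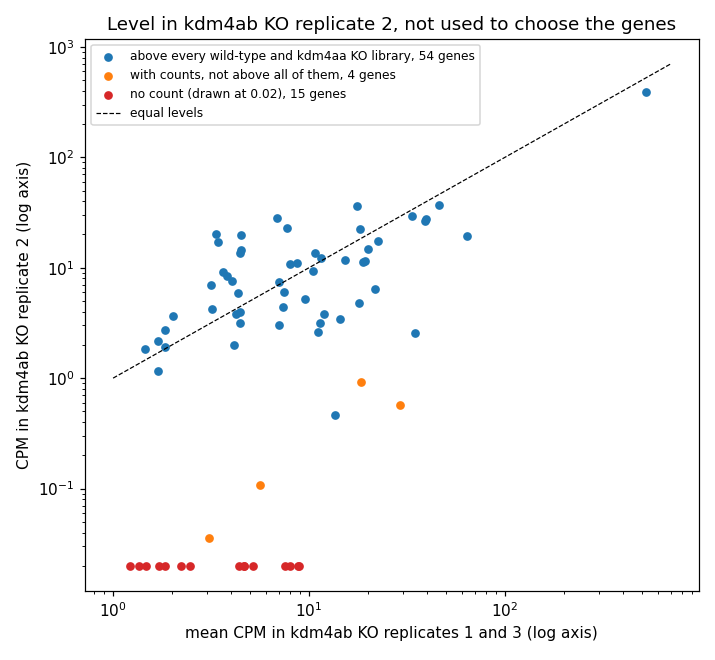
CPM in kdm4ab knockout replicate 2 (log axis) against the mean CPM of replicates 1 and 3 (log axis) for the 73 genes, 1 point per gene, with genes of no count drawn at 0.02. The 54 blue points lie above every wild-type and kdm4aa knockout library, 4 orange points do not, and 15 red points have no count.

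In the kdm4aa knockout the genes were at different levels. Against wild type, 36 of the 73 were higher there, 8 were lower and 29 were not called, where 46.8% of all tested genes were called, 23.3% higher and 23.5% lower. In the fit of all 9 libraries, 15 and 2 were called, where 8.88% of all tested genes were called, 4.33% higher and 4.55% lower, and all 17 were among those called with 8 libraries in the same direction. The rule used the levels of both groups and favours this direction, since it allows the kdm4aa knockout up to 1/4 of the kdm4ab knockout level but wild type only 1/16. The counts and the single-gene p-values of this comparison are therefore a description of the chosen genes. Nothing is read from the excess of higher over lower calls. The rule also does not require the kdm4aa knockout to be as low as wild type, and 39 of the 73 had a kdm4aa knockout library above 1/16 of the kdm4ab knockout level.

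The largest shares of the kdm4ab knockout level in the kdm4aa knockout were those of CRHR2, at 23.0%, capn2a, at 21.3%, LRP2, at 18.2%, KMO, at 18.1%, PPP1R9A, at 17.3%, and RASGRP2, at 16.9%. Against wild type, capn2a rose by 2.54 on the log2 scale (SE 0.160, adjusted p 1.09e-09), KMO by 2.33 (SE 0.237, adjusted p 4.18e-07) and CRHR2 by 3.55 (SE 0.476, adjusted p 9.78e-06). GGACT rose from 4 counts in all of wild type, a ratio of 33.4 (exact 95% interval 12.7 to 125) with an adjusted p of 2.27e-06. In each of these 4 genes all kdm4aa knockout libraries lay above all wild-type libraries, as in 24.4% of all tested genes. Each call was kept with all 9 libraries (adjusted p 0.0107, 0.0297, 0.0104 and 0.018), a fit that holds the same wild-type and kdm4aa knockout libraries. All wild-type counts of GGACT came from replicate 2, and without that library the fitted differences of GGACT and CRHR2 were 8.53 and 4.43 in place of 4.99 and 3.55. LMX1B, cspg4bb and LRP2 rose by 2.13, 2.46 and 2.63 (adjusted p 1.09e-05, 9.12e-06 and 2.18e-05). RASGRP2, with no wild-type count, was at least 7.54-fold higher (adjusted p 2.6e-05). MYOM1 rose by 2.86 (adjusted p 5.87e-06), a call lost with all 9 libraries (adjusted p 0.138), as was that of PPP1R9A, a neuronal scaffold of protein phosphatase (log2 3.69, adjusted p 0.000616, and log2 3.65 with adjusted p 0.233 with all 9). All wild-type counts of PPP1R9A too came from replicate 2, and without it the fitted difference was 7.53.

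The 8 members that fell in the kdm4aa knockout were gbgt1l4, btr07, CHRNB3, the sorting nexin gene snx22, KCNH5, MCHR2, clcnk and si:dkey-97i18.5. For btr07 the difference was −1.46 (SE 0.256, adjusted p 0.000161) and for CHRNB3 −1.26 (SE 0.391, adjusted p 0.0135, and 0.0506 without wild-type replicate 1). KCNH5, with 2 counts in all of the kdm4aa knockout and libraries that overlapped wild type, had a ratio of 0.0937 to wild type (exact 95% interval 0.0107 to 0.379, adjusted p 0.00896). Of the 8 calls, those of gbgt1l4 and btr07 were kept with all 9 libraries (adjusted p 0.00371 and 0.026). Of the 8, KCNH5 and clcnk had no count in kdm4ab knockout replicate 2. For slc38a5b, trpm4b.2 and PSME1 the differences between the kdm4aa knockout and wild type were 0.27, −0.11 and 0.87 (adjusted p 0.362, 0.759 and 0.07).

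**Figure D3:**
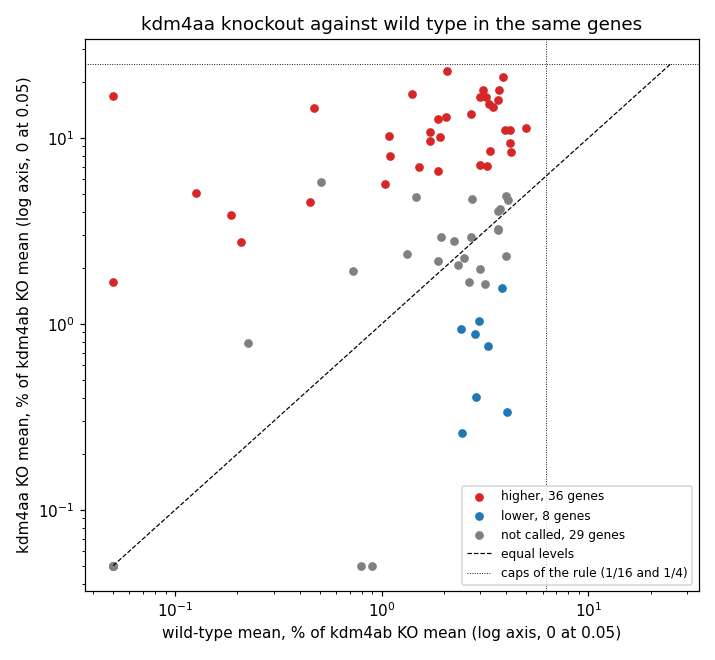
Mean level in the kdm4aa knockout against that in wild type, each as a percentage of the mean of kdm4ab knockout replicates 1 and 3 (log axes, values of 0 drawn at 0.05), 1 point per gene. The 36 genes called higher in the kdm4aa knockout lie above the line of equal levels and the 8 called lower lie below it, and dotted lines mark the caps of the rule.

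Members lay across the genome. Of the 73, 69 could be placed on a chromosome, and they fell on 24 chromosomes, with none on chromosome 11. The highest number was 7 on chromosome 22, which is 9.59% of members where 3.79% of all tested genes lie there. Of these 7, 6 had no informative symbol. In kdm4ab knockout replicate 2, 4 of them stood at more than 2 times their mean in replicates 1 and 3, a share not counted over all genes. Chromosome 8 held 6 members, 8.22% against 4.13% of tested genes. On chromosome 2, where kdm4ab lies, were CRHR2 and the ankyrin repeat gene ANKRD33B (ENSDARG00000015589), 2.74% of members against 4.46% of tested genes. They stood 344 and 340 rows of the table from kdm4ab, among 1614 rows on that chromosome. Neither was thus close to the targeted gene in the order of the table, which was not checked against coordinates within a chromosome. ANKRD33B was at 0.197, 0.182 and 0.486 CPM in wild type and at 21.9, 6.42 and 21.6 CPM in kdm4ab knockout replicates 1, 2 and 3.

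**Figure D4:**
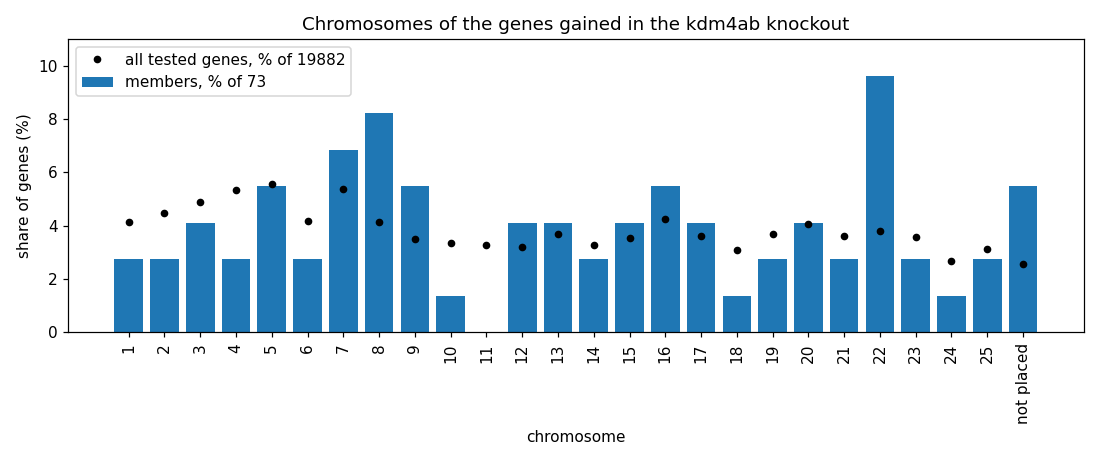
Share of the 73 members (bars, percent) and of all tested genes (black points, percent) on each chromosome, with genes that could not be placed at the right. Chromosome 22 holds 9.59% of members and 3.79% of tested genes, and chromosome 2, which carries kdm4ab, holds 2.74% and 4.46%.

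Some members lay close together. In the order of the table, 19 had another member within 20 rows on the same chromosome, and 6 were next to another member. Such numbers were not counted for other sets of genes, so no clustering is read from them. On chromosome 15, zbtb16b and NCAM1 were adjacent and HSPA8 lay 18 rows further. The transcriptional repressor gene zbtb16b had 2.36 and 2.05 CPM in kdm4ab knockout replicates 1 and 3 and none in replicate 2, where NCAM1 had 0.574 CPM and HSPA8 5.23 CPM. On chromosome 20, PTK2B and KCNH5 were adjacent, with 2.62 CPM and no count in replicate 2. The genes ENSDARG00000117462 and si:dkey-163f12.6 were adjacent on chromosome 8, with no count and 1.90 CPM. In all 3 adjacent pairs replicate 2 had counts for 1 gene and none for the other.

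The genes beside the members, which the rule did not use, were tested in the same fit. A neighbour is the nearest tested gene before or after a member in the order of the table, on the same chromosome. Untested genes in between were skipped, so a gene said to lie beside a member need not be the adjacent one. Of 131 neighbours, 49 (37.4%) were higher in the kdm4ab knockout than in wild type and 31 (23.7%) lower, against 25.3% and 24.2% of all tested genes. Of these neighbours, 15.3% had a fitted log2 difference of at least 2 and 7.63% of −2 or less, against 5.94% and 7.85% of all tested genes. With all 9 libraries, 12 of 121 neighbours (9.92%) were higher and 7 (5.79%) lower, close to the 8.97% and 8.04% of all tested genes in that fit. The strand setting of the counts is not given, so reads of a member and of an overlapping or antisense gene cannot be told apart.

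Neighbours were named after their values were seen. SIPA1, a regulator of the small GTPase Rap that lies next to RASGRP2, rose from 0.419, 0.364 and 0.552 CPM in wild type to 17.6, 3.80 and 20.7 CPM in kdm4ab knockout replicates 1, 2 and 3 (log2 5.31, SE 0.215, adjusted p 5.36e-12, and 0.00196 with all 9 libraries). In the kdm4aa knockout SIPA1 was at 7.45 ± 0.727 CPM (SD, n = 3), above the cap of the rule, so it is no member. Next to gbgt1l4, the related gene gbgt1l2 rose from 2.61 ± 0.646 CPM (SD, n = 3) to 9.25, 8.96 and 8.68 CPM (log2 1.67, adjusted p 1.29e-05, and 0.00703 with all 9). The integrin-like gene itga6l beside CHRNB3 rose by 3.24 (adjusted p 2.76e-05, and 0.0132 with all 9), and si:dkeyp-98a7.8 beside si:dkeyp-98a7.7 by 1.94 (adjusted p 2.76e-05, and 0.0141). Others moved the opposite way from their member. CLEC19A beside SYT17 was at 2.25 ± 0.225 CPM (SD, n = 3) in wild type and 0.0867, 0 and 0 CPM in the kdm4ab knockout replicates (log2 −5.60, adjusted p 8.45e-07, and 0.00512 with all 9). RASGEF1B beside cspg4bb fell by 1.93 log2 units (adjusted p 7.88e-06, and 0.029 with all 9). Without kdm4ab knockout replicate 1 the fitted differences of CLEC19A and RASGEF1B were −9.47 and −2.59.

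Genes with the same symbol as a member, or with a symbol that differs only at its end, were also compared. Some are other genes of a family and no copies, as PTK2 for PTK2B, PPP1R9B for PPP1R9A and lmx1a for LMX1B. All are called same-name or sister genes, or copies, for short. There were 46 such genes for 37 members, of which 39 were tested: 11 (28.2%) were higher in the kdm4ab knockout than in wild type, 13 (33.3%) were lower and 15 were not called, where 25.3% and 24.2% of all tested genes were called. With all 9 libraries 2 of 38 were higher and 2 lower, where 8.97% and 8.04% of all tested genes were. The lower copies numbered 6 without kdm4ab knockout replicate 1 and 7 without replicate 3. Reads of near-identical copies may have been split by the authors' counting, so values of members and copies are uncertain to that degree. MYOM1 showed an opposed pair. The other identifier of that name (ENSDARG00000061249) was at 13.5, 12.5 and 16.1 CPM in wild type, 0.265 ± 0.163 CPM (SD, n = 3) in the kdm4aa knockout, and 1.71, 0 and 0.768 CPM in kdm4ab knockout replicates 1, 2 and 3. It fell by 3.58 on the log2 scale (SE 0.318, adjusted p 7.3e-08, and 0.0329 with all 9 libraries), while the member of the same name was higher in replicates 1 and 3. Without kdm4ab knockout replicate 1 the fitted difference of that other identifier was −4.29.

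The growth hormone receptor gene ghra, sister of ghrb, differed from wild type by 3.90 (adjusted p 0.000845) at 1.54 and 1.18 CPM in kdm4ab knockout replicates 1 and 3, with no count in replicate 2. The other identifier of MCHR2 (ENSDARG00000101313) differed by −3.77 (adjusted p 0.0279, and 0.0875 with all 9) and stood at or under 0.390 CPM in all wild-type libraries. The second cspg4 gene, cspg4ba, fell by 1.11 (adjusted p 0.000275, and 0.0544 with all 9), trpm4b.1 by 1.19 (adjusted p 0.00276, 0.352 with all 9, and 0.056 without kdm4ab knockout replicate 1) and tent5ba, of a family of poly-A polymerases, by 1.24 (adjusted p 4.27e-07, and 0.0049). For NEXMIF and NCAM1 the other identifiers (ENSDARG00000089271 and ENSDARG00000056181) differed from wild type by 0.13 and −0.19 (adjusted p 0.574 and 0.403). In GGACT the other identifier (ENSDARG00000038248), which lies next to the member, rose as well, from 0.902 ± 0.151 CPM (SD, n = 3) to 8.08, 12.2 and 5.61 CPM in kdm4ab knockout replicates 1, 2 and 3 (log2 2.82, SE 0.260, adjusted p 1.11e-07, and 0.00129 with all 9).

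**Figure D5:**
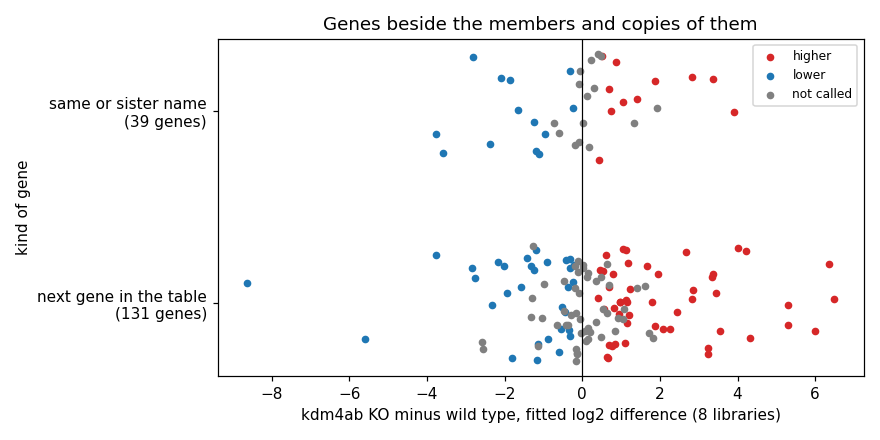
Fitted log2 difference between the kdm4ab knockout and wild type (horizontal axis, 8 libraries), 1 point per gene, spread vertically at random for display. Drawn are the 131 nearest tested genes of members and 39 genes with the same name or one that differs only at its end. Red points were called higher (49 and 11), blue points lower (31 and 13), and grey points were not called.

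None of the pathway lists held a member, and they are given to describe the libraries. In the kdm4ab knockout 25.3% of all tested genes were called higher and 24.2% lower, and 8.97% and 8.04% with all 9 libraries. Of 20 tested interferon and antiviral genes, 11 rose in the kdm4ab knockout and 1 fell, with a median difference of 1.27 where all tested genes had 0.01, and 5 of 18 rose and none fell with all 9 libraries. Of 16 genes of p53 arrest and death, 10 rose and 2 fell, with a median of 1.23, and 7 rose and none fell with all 9 libraries. Of 9 antigen presentation genes, 3 rose and 1 fell, with a median of 0.37, and 1 of 8 rose and none fell with all 9. Of 20 writers, erasers and readers of methylation on H3K9 and H3K36, 5 rose and 6 fell, with a median of 0.02, and 1 rose and none fell with all 9. In the KDM4 family of 4 genes, kdm4ab fell by 5.91 log2 units (adjusted p 9.47e-14) and kdm4aa by 0.35 (adjusted p 0.0393, 0.624 with all 9, and 0.0975, 0.0673 and 0.203 without wild-type replicates 2 and 3 and kdm4ab knockout replicate 1). Of 13 tested epidermal markers, 11 fell and 1 rose, and 9 of 11 fell and 1 rose with all 9. The libraries of the kdm4ab knockout lay on both sides of wild type in the sum of these markers, at 1387 to 1629 CPM in wild type, at 821 to 906 CPM in the kdm4aa knockout, at 1196 and 1054 CPM in kdm4ab knockout replicates 1 and 3, and 2527 CPM in replicate 2. Summed maternal oocyte markers were at 1969 to 2169 CPM in wild type, at 3392 to 4143 CPM in the kdm4aa knockout, at 2650 and 2753 CPM in those replicates and 6745 CPM in replicate 2. The part of such differences in cell makeup or timing in the members' levels was not tested.

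The limits of the rule were sharp only in part. Just inside the wild-type cap were CRAT, kcnn3 and DPYSL4, whose highest wild-type library was at 5.95%, 5.95% and 5.87% of the mean of kdm4ab knockout replicates 1 and 3. Just outside were ncana, AMPD3 and GDF2, at 6.61%, 6.64% and 6.68%.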

How the data were processed

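Whole-number counts per Ensembl gene and library were deposited by the authors, not normalized, and the submitters' processing notes name the builds GRCz11 and danRer11. The aligner, counting tool, annotation release and strand setting: not given in the sources used here. CPM values are counts divided by the column sum. Counts passed edgeR's filterByExpr, were normalized with TMM factors and were tested in edgeR 4.0.16 (R 4.3.3) with the quasi-likelihood F-test, 1 mean per genotype, 8 libraries (without kdm4ab knockout replicate 2), two-sided, with Benjamini-Hochberg adjustment over all 19882 genes and calls at an adjusted p under 0.05. A standard error is |log2| over the root of F. The script was tested on simulated data. Folds of members are ratios of pooled rates with exact (Clopper-Pearson) intervals, or lower bounds against 3 counts per library. Both cover counting error only.

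Alternatives were all 9 libraries, other scaling, no filter, DESeq2 1.42.0, a replicate block and leaving out each library. Groups came from the titles. The members, lists and tests were chosen with earlier results of these data known. Named members are the 15 of highest rate with an informative symbol, those with the largest kdm4aa knockout share, calls, positions and pairs. Others named by role were chosen after their values were seen. Of 74 genes meeting the rule, 1 was left out, and the values of 1 further gene, counted among the 73, are not reported here. Chromosomes are the vote of at least 8 of the 10 nearest genes placed by unique symbol on GRCz12tu (29201 identifiers had a symbol). By a unique symbol 16968 genes were placed, and among those of them that had a vote 99.6% matched it.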

Additional observations from a re-analysis of the deposited data

Results flagged for a closer look

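The library of kdm4ab knockout replicate 2, which took no part in choosing the genes, had counts for 58 of the 73 members and none for 15. In it 54 members lay above every wild-type and kdm4aa knockout library, as did 38% of all genes with at least 1 CPM in replicates 1 and 3. The rule makes members low in those 6 libraries, so the 2 shares are not alike in kind. The minimum and both caps of the rule were met by 34 members when replicate 2 took the place of the mean of replicates 1 and 3. The share over all genes that did so was not counted, so nothing is read from the 34. Replicate 2 is 1 library, so no test was made.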

How the results depend on the processing

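With other caps the rule found 142 genes (wild-type cap of 1/8), 26 (1/32), 34 (kdm4aa knockout cap of 1/16), 110 (no kdm4aa knockout cap) and 40 (at least 5 CPM). It found 62 with TMM-scaled CPM. On CPM from column sums it found 53 when kdm4ab knockout replicate 2 also had to reach 1 CPM. With all 9 libraries, 57 members were called higher in the kdm4ab knockout (65 tested), and 72 with DESeq2. The rule used this contrast, so these counts are read no further. With all 9 libraries, members called in the kdm4aa knockout numbered 15 higher and 2 lower, all genes called 3232 for the kdm4ab knockout and 1687 for the kdm4aa knockout, neighbours 12 higher and 7 lower, and same-name or sister genes 2 higher and 2 lower. The cause was not tested.

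Leaving out 1 library at a time gave 72 to 86 genes by the rule, and among members 73 calls each time in the kdm4ab knockout, and 31 to 36 higher and 5 to 7 lower in the kdm4aa knockout (5 without kdm4aa knockout replicate 2). All genes called ran from 7783 to 9948 and from 7914 to 9527. Neighbours ran from 34 to 49 higher and 20 to 32 lower (20 without kdm4ab knockout replicate 3). Same-name or sister genes ran from 7 to 11 higher (7 without kdm4ab knockout replicate 1) and 6 to 12 lower (6 and 7 without kdm4ab knockout replicates 1 and 3). Such fits have fewer samples. The 73 calls in the kdm4ab knockout follow from the rule, so they are no sign of stability. The counts of members in the kdm4aa knockout are shaped by the caps of the rule.

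No pairing by replicate number was seen: correlations of deviations ran from −0.09 to 0.152 between same-numbered libraries and from −0.152 to 0.156 between others. Deviations of kdm4ab knockout replicates 1 and 3 mirror each other by construction, so this check cannot exclude pairing. With the replicate block, 73 members were called higher in the kdm4ab knockout, which follows from the rule. That fit called 8 same-name or sister genes lower, against 13 without the block. Of 46 called genes named here with a test, 19 lost the call with all 9 libraries and 0 to 5 under the other alternatives, and none reversed. Genes that an alternative did not test are not counted as lost, so the remaining calls were not all kept. With all 9 libraries clcnk and ghra were not tested. Members near 1 CPM rest on few counts in wild type, which limits their ratios.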
